A study of Mus musculus with 21 samples.

Results

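Expression of 10 amino acid transporter genes was examined in mouse B cell precursors that carried a leukemia-inducing oncogene or an empty vector. The genes were chosen by symbol (Slc3a2, Slc7a5, Slc7a6, Slc7a11, Slc7a1, Slc1a5, Slc1a4, Slc38a1, Slc38a2 and Slc43a1). All 10 were among the 24421 gene symbols of the count and FPKM tables, and all 10 were among the 12786 genes that had enough counts to be tested. All cultures came from primary bone marrow of 53BP1-/- C57BL/6 mice, which lack a DNA repair factor, so the controls carried this deletion too. B cell precursors were enriched by culture with IL-7, and the cultures were transduced with MIGR1 retroviral vectors. These were the empty vector (EV), a vector encoding BCR-ABL1 p210 (a leukemia-inducing fusion kinase) or a vector encoding the transcription factor C-MYC. Cells were harvested on days 7 to 9 after transduction, and poly(A) RNA was sequenced in duplicate experiments, which gave 2 libraries per condition and 6 in all. The labels do not say whether the 2 libraries of a condition came from separate animals, so p-values measure the spread between these libraries only.

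Proliferating lymphocytes cannot make the essential amino acids, and they import these through membrane transporters of the solute carrier families. CD98 heavy chain, encoded by Slc3a2, carries several light chains to the cell surface, among them LAT1 (Slc7a5), which brings in leucine and other large neutral amino acids in exchange for intracellular ones such as glutamine. Imported leucine and arginine are sensed at the lysosome by the machinery that activates the growth kinase complex mTORC1. Cystine imported by xCT (Slc7a11) is reduced to cysteine, which feeds glutathione synthesis.

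Libraries held between 20687092 and 24095955 counts. Myc, which checks the labels of the C-MYC libraries, was at 181 and 137 CPM (counts scaled to a common library size after TMM normalization) in EV, 343 and 348 with BCR-ABL1 and 1743 and 1233 with C-MYC, where reads of vector transcripts may be included. B precursor markers were detected in all libraries, with a sum over 8 markers of 4727 to 5421 CPM in EV and BCR-ABL1 and of 3253 and 2732 in C-MYC. EdgeR called 7 of these 8 lower in C-MYC than in EV (24.5% of all tested genes) and 2 lower in BCR-ABL1 than in EV (12.0% of all). Both EV libraries also held more RNA of marker genes of other cell types than the other libraries did. The sum over 8 myeloid markers was 1257 and 1107 CPM in EV, 139 and 157 with BCR-ABL1 and 190 and 327 with C-MYC, and Elane was at or under 3 counts in both BCR-ABL1 libraries. The sum over 6 T and NK cell markers was 118 and 86.1 CPM in EV and 3.82 to 8.64 in the other libraries. For 4 stromal markers it was 101 and 153 CPM in EV and 1.65 to 5.94 elsewhere. The part of these cells in the differences from EV was not tested. Fewer cells of a type and less RNA per cell cannot be told apart in such bulk samples.

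Together, the 10 transporters took up 2127 and 2200 CPM in EV, 2430 and 2433 with BCR-ABL1 and 2921 and 2685 with C-MYC. C-MYC differed from EV by higher mRNA of Slc7a5, Slc7a1, Slc7a6, Slc3a2 and Slc1a4 and lower mRNA of Slc7a11. BCR-ABL1 differed from EV by higher Slc7a5 and Slc38a2. The differences of Slc1a4 and Slc7a11 in C-MYC and both of those in BCR-ABL1 did not pass on FPKM. For Slc7a11, the log2 fold change went from -2.63 to -0.90 without EV replicate 1. Slc1a5 and Slc38a1, at 2 of the 3 highest FPKM levels, passed the test in no comparison.

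**Figure D1:**
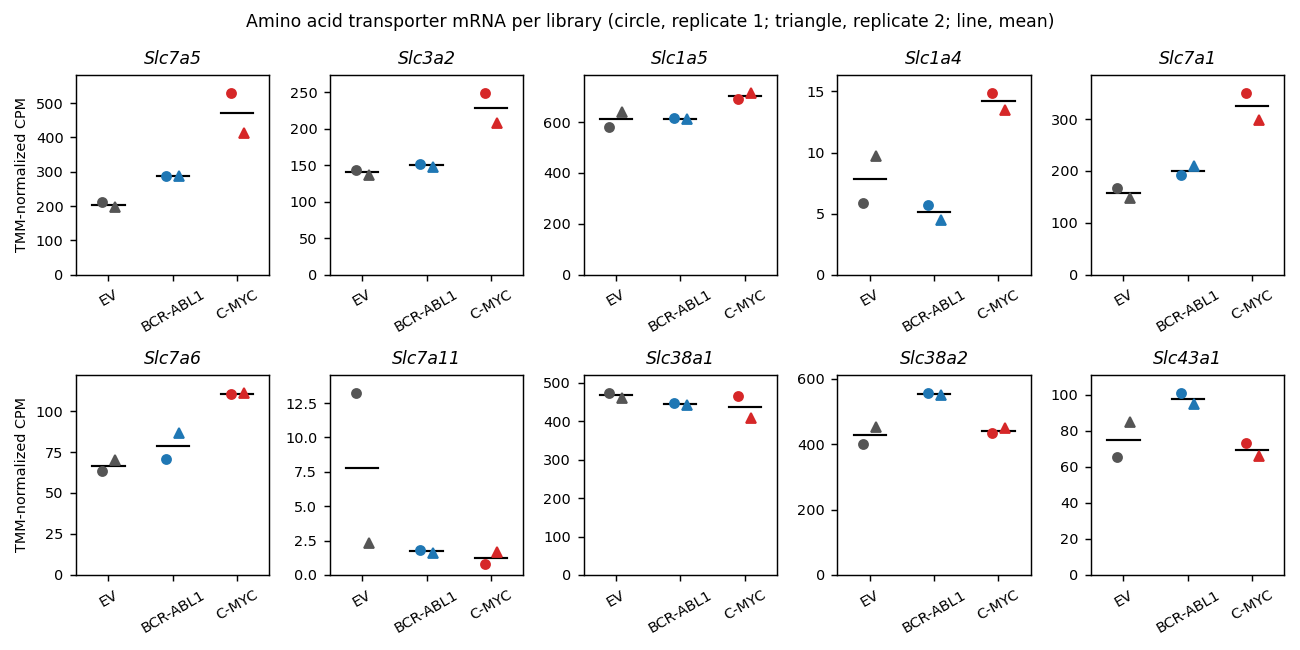
TMM-normalized CPM (vertical axes, each from 0) of the 10 transporters in each library of EV, BCR-ABL1 and C-MYC, with replicate 1 as circles, replicate 2 as triangles and the mean of 2 libraries as a line. Slc7a5, Slc3a2, Slc7a1, Slc7a6, Slc1a4 and Slc1a5 are highest in both C-MYC libraries, and Slc7a11 is high in 1 EV library, at 13.2 CPM. The share of all genes that are highest in both C-MYC libraries was not counted.

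The CD98 heavy chain gene Slc3a2 (chr19:8706882-8723369, minus strand) was at 143 and 137 CPM in EV, 152 and 147 with BCR-ABL1 and 249 and 208 with C-MYC. Both C-MYC libraries lay above the 4 others, which lay within a narrow range. The log2 fold change of C-MYC against EV was 0.71 ± 0.12 (SE, n = 2 per condition, edgeR quasi-likelihood test, Benjamini-Hochberg adjusted p = 0.00262), and that of C-MYC against BCR-ABL1 was 0.61 ± 0.12 (edgeR adjusted p = 0.00998). On FPKM with a pseudocount of 1, the difference between C-MYC and BCR-ABL1 was 0.58 and did not pass (limma adjusted p = 0.139). It was 0.47 to 0.74 in edgeR when 1 of their libraries was left out. BCR-ABL1 and EV differed by 0.10 (95% interval -0.18 to 0.37) on the log2 scale, which did not pass the test.

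Slc7a5 (chr8:121881150-121907694, minus strand), the LAT1 light chain, was at 212 and 197 CPM in EV, 289 and 287 with BCR-ABL1 and 530 and 414 with C-MYC. The conditions followed one another without overlap of libraries. C-MYC exceeded EV 2.31-fold (log2 fold change 1.21 ± 0.13 SE, edgeR adjusted p = 0.000541) and BCR-ABL1 1.64-fold (0.71 ± 0.13, edgeR adjusted p = 0.00841). BCR-ABL1 exceeded EV 1.41-fold (0.49 ± 0.13, edgeR adjusted p = 0.0387). The whole gene lies within Gm20388, annotated on the opposite strand, and the strand setting of the counting is not given in the sources used here.

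Slc7a6 (chr8:106168857-106198706, plus strand) encodes y+LAT2, a CD98 partner that exchanges cationic for neutral amino acids. It was at 63.3 and 69.9 CPM in EV, 71.0 and 86.5 with BCR-ABL1 and 110 and 111 with C-MYC. Again both C-MYC libraries were highest, with a log2 fold change of 0.73 ± 0.13 (SE) against EV (edgeR adjusted p = 0.00369) and of 0.49 ± 0.13 against BCR-ABL1 (edgeR adjusted p = 0.0325). On FPKM with a pseudocount of 1, the difference between C-MYC and BCR-ABL1 was 0.43 and did not pass (limma adjusted p = 0.0668). It was 0.35 to 0.65 in edgeR when 1 of their libraries was left out.

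Slc7a11 (chr3:49892526-50443614, minus strand), the light chain of the cystine and glutamate exchanger xCT, was not among the genes that rose. It was counted 283 and 56 times in the EV libraries, 39 and 39 times with BCR-ABL1 and 17 and 38 times with C-MYC. EV replicate 1 stood apart from all 5 other libraries, including its own replicate. The log2 fold change of C-MYC against EV was -2.63 ± 0.77 (SE, edgeR adjusted p = 0.0262), and it was -0.90 without EV replicate 1 (edgeR adjusted p = 0.154). The call was also lost without C-MYC replicate 1 (edgeR adjusted p = 0.155) or C-MYC replicate 2 (edgeR adjusted p = 0.0696). The difference of BCR-ABL1 from EV, -2.16 ± 0.74, missed the threshold in the fit of all libraries (edgeR adjusted p = 0.0878) and passed it without EV replicate 2 (-2.93, edgeR adjusted p = 0.000877). Of the myeloid markers, S100a8 (202 and 51.1 CPM), S100a9 (314 and 109), Cd14 (35.5 and 13.2) and Elane (3.74 and 1.42) were likewise higher in EV replicate 1 than in EV replicate 2, as were Itgam (113 and 89.6) and Mpo (9.58 and 7.98). Lyz2 (496 and 690 CPM) and Csf1r (82.5 and 145) were lower in EV replicate 1. The part of myeloid cells in the Slc7a11 values was not tested.

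The cationic amino acid transporter Slc7a1 (chr5:148327410-148399904, minus strand), which imports arginine and lysine without CD98, had the same order of conditions as Slc7a5. It was at 167 and 147 CPM in EV, 192 and 209 with BCR-ABL1 and 351 and 299 with C-MYC. C-MYC was 2.06-fold above EV (log2 fold change 1.05 ± 0.12 SE, edgeR adjusted p = 0.000704) and 1.62-fold above BCR-ABL1 (0.70 ± 0.12, edgeR adjusted p = 0.00748). Both BCR-ABL1 libraries lay above both EV libraries, but the difference of 0.35 ± 0.12 did not pass the test (edgeR adjusted p = 0.0937). With the replicate number as a block, it passed (0.36, edgeR adjusted p = 0.0464), and so it did without EV replicate 1 (0.45, edgeR adjusted p = 0.04997).

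The glutamine transporter ASCT2, encoded by Slc1a5 (chr7:16781340-16798274, plus strand), exchanges neutral amino acids together with sodium. Its mRNA was at 582 and 639 CPM in EV, 615 and 611 with BCR-ABL1 and 693 and 716 with C-MYC. The 2 C-MYC libraries were the highest, but neither difference passed the test. The 95% interval of the log2 fold change was -0.01 to 0.42 for C-MYC against EV and -0.21 to 0.22 for BCR-ABL1 against EV.

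The related ASCT1 gene Slc1a4 (chr11:20302180-20332713, minus strand) encodes an exchanger of alanine, serine, cysteine and threonine. Its level was far lower, at 5.89 and 9.74 CPM in EV, 5.74 and 4.49 with BCR-ABL1 and 14.9 and 13.5 with C-MYC, from 108 to 324 counts per library. C-MYC was 2.78-fold above BCR-ABL1 (log2 fold change 1.47 ± 0.28 SE, edgeR adjusted p = 0.00945), the largest rise among the 10 transporters in any of the 3 comparisons. This call was lost without BCR-ABL1 replicate 1 (edgeR adjusted p = 0.0555), BCR-ABL1 replicate 2 (0.0692), C-MYC replicate 1 (0.0586) or C-MYC replicate 2 (0.0505). Against EV, whose libraries differed from each other, it was 0.86 ± 0.27 (edgeR adjusted p = 0.0356). This call against EV was lost without EV replicate 1 (0.55, edgeR adjusted p = 0.0810), without BCR-ABL1 replicate 1 (edgeR adjusted p = 0.0527) and without either C-MYC library (edgeR adjusted p = 0.149 and 0.0942). Without EV replicate 1, BCR-ABL1 was lower than EV (-0.93, edgeR adjusted p = 0.0230), which was not called with all libraries (-0.62 ± 0.28, edgeR adjusted p = 0.180).

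Slc38a1 and Slc38a2 encode the sodium-coupled neutral amino acid transporters SNAT1 and SNAT2, which import glutamine and alanine. They are neighbours on chromosome 15 (chr15:96571418-96642913 and chr15:96687392-96699730, both on the minus strand). Slc38a1 varied little, at 473 and 461 CPM in EV, 447 and 442 with BCR-ABL1 and 465 and 409 with C-MYC, and its 95% interval for C-MYC against EV was -0.33 to 0.14 on the log2 scale. Slc38a2 was at 401 and 452 CPM in EV, 556 and 550 with BCR-ABL1 and 434 and 449 with C-MYC. It was thus highest in both BCR-ABL1 libraries, with a log2 fold change of 0.37 ± 0.10 (SE) against EV (edgeR adjusted p = 0.0377), and C-MYC lay below BCR-ABL1 (-0.33 ± 0.10, edgeR adjusted p = 0.0481). C-MYC and EV did not differ beyond their spread (0.05, 95% interval -0.18 to 0.28).

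Slc43a1 (chr2:84838850-84863594, plus strand) encodes LAT3, which lets branched-chain amino acids and phenylalanine cross the membrane without CD98. Like Slc38a2, it was highest in both BCR-ABL1 libraries, at 65.4 and 84.9 CPM in EV, 101 and 94.9 with BCR-ABL1 and 73.3 and 65.8 with C-MYC. C-MYC was lower than BCR-ABL1 (-0.49 ± 0.15 SE, edgeR adjusted p = 0.0480). BCR-ABL1 against EV gave 0.38 ± 0.15 (edgeR adjusted p = 0.125), which passed only without EV replicate 2 (0.58, edgeR adjusted p = 0.0152) among the settings tried.

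Of the 10 transporters, 2 were higher and 0 lower in BCR-ABL1 than in EV, where 5.08% of all tested genes were higher and 12.0% lower. Slc7a1, Slc7a6, Slc43a1 and Slc3a2 had positive values that did not pass, and Slc1a5 was near 0 (0.0055). At an unadjusted p below 0.05, edgeR found 4 higher genes and 1 lower gene, Slc7a11. The DESeq2 test at its adjusted threshold found 2 higher genes and the same lower one (log2 fold change -2.14). The median log2 fold change of the 10 was 0.17, and that of all genes 0.0010. Slc7a5 was not called without EV replicate 2 (edgeR adjusted p = 0.0772), BCR-ABL1 replicate 1 (0.177) or BCR-ABL1 replicate 2 (0.194), and Slc38a2 was not called without EV replicate 1 (0.0871), either BCR-ABL1 library (0.211 and 0.212) or either C-MYC library (0.0530 and 0.0531).

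In C-MYC against EV, 5 of the 10 were higher and 1 lower, with 18.6% of all tested genes higher and 24.5% lower. The median was 0.46 for the transporters and -0.08 for all genes. Slc7a5, Slc7a1, Slc7a6 and Slc3a2 were called under each omission of a single library. In C-MYC against BCR-ABL1, the direct comparison of both oncogenes, 5 were higher (Slc1a4, Slc7a5, Slc7a1, Slc3a2 and Slc7a6) and 2 lower (Slc38a2 and Slc43a1), beside 11.5% of all genes higher and 11.9% lower. The median was 0.34, against a median of all genes of -3.3e-05. The 5 higher genes were also called in a fit of only the 4 libraries compared, which left EV out. With a condition reduced to 1 library, which was taken to vary like the others, fewer calls were made: 0 higher without BCR-ABL1 replicate 1, 1 without BCR-ABL1 replicate 2, 1 without C-MYC replicate 1 and 3 without C-MYC replicate 2. Calls over all genes also dropped then, from 1468 higher genes to between 176 and 590, and neither lower call was made when any 1 of these 4 libraries was left out.

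**Figure D2:**
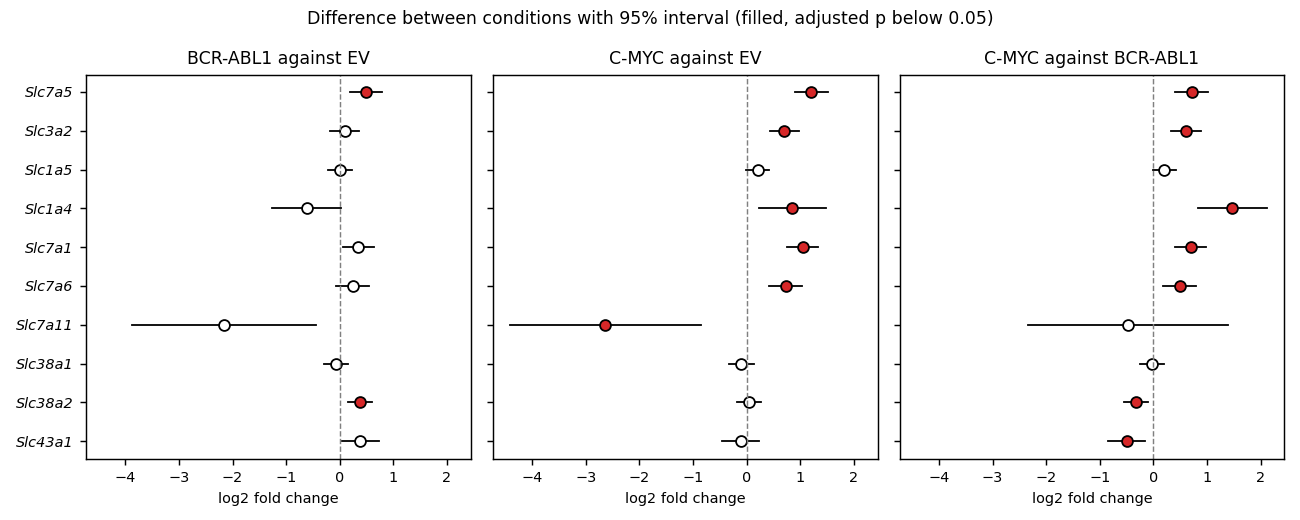
Log2 fold change (horizontal axes) of each transporter in the 3 comparisons, with its 95% interval from the edgeR fit (n = 2 libraries per condition) and filled points where the adjusted p was below 0.05. Slc7a5 has a filled point right of 0 in all 3 panels, and the interval of Slc7a11 is the widest. Between the first and the third panel, Slc38a2 and Slc43a1 go from right to left of 0 and Slc1a4 from left to right. Both of these panels use the BCR-ABL1 libraries, with opposite sign.

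Levels between genes were compared on the FPKM scale, which is per length. In EV, Slc38a1 was highest (290 and 290 FPKM), followed by Slc1a5 (185 and 209), Slc7a5 (138 and 131) and Slc38a2 (100 and 115), with no overlap between neighbours. Next came Slc43a1 (23.6 and 31.0), Slc7a6 (24.3 and 27.5), Slc3a2 (22.1 and 21.9) and Slc7a1 (17.9 and 16.1), of which the first pair overlapped. Slc7a11 (6.64 and 1.25) and Slc1a4 (2.77 and 4.72) were lowest and could not be ordered.

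In BCR-ABL1, Slc38a1 (262 and 262 FPKM) was followed by Slc1a5 (188 and 189), Slc7a5 (180 and 181) and Slc38a2 (133 and 133). Slc43a1 (35.4 and 33.2) came next, above Slc7a6 (26.4 and 32.1), which overlapped with Slc3a2 (30.7 and 21.4), as Slc3a2 did with Slc7a1 (19.7 and 21.7). Slc1a4 (2.58 and 2.04) exceeded Slc7a11 (1.25 and 0.938). In C-MYC, Slc7a5 (314 and 256) rose to the level of Slc38a1 (260 and 238), with overlapping libraries, and both were above Slc1a5 (202 and 217) and Slc38a2 (98.7 and 107). Slc7a6 (38.6 and 40.6), Slc3a2 (48.0 and 31.4) and Slc7a1 (34.2 and 30.2) overlapped in turn, above Slc43a1 (24.0 and 22.0), Slc1a4 (6.37 and 6.04) and Slc7a11 (0.857 and 0.867). The heavy chain thus had a lower FPKM than its light chain LAT1 in each of the 6 libraries.

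The order depended on the length used. When TMM-normalized CPM were divided by the annotated exon length, 3 of the 10 genes kept their rank over all libraries. Slc38a1, with 17.2 kb of annotated exon, went from rank 1 to rank 5, Slc1a5 became the first, and Slc3a2 went from rank 6 to rank 4. The FPKM of Slc3a2 also differed between replicates (30.7 and 21.4 in BCR-ABL1) where its CPM did not (152 and 147). The FPKM of Slc7a11 was close between the C-MYC libraries (0.857 and 0.867), where its CPM was not (0.781 and 1.71, from 17 and 38 counts).

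**Figure D3:**
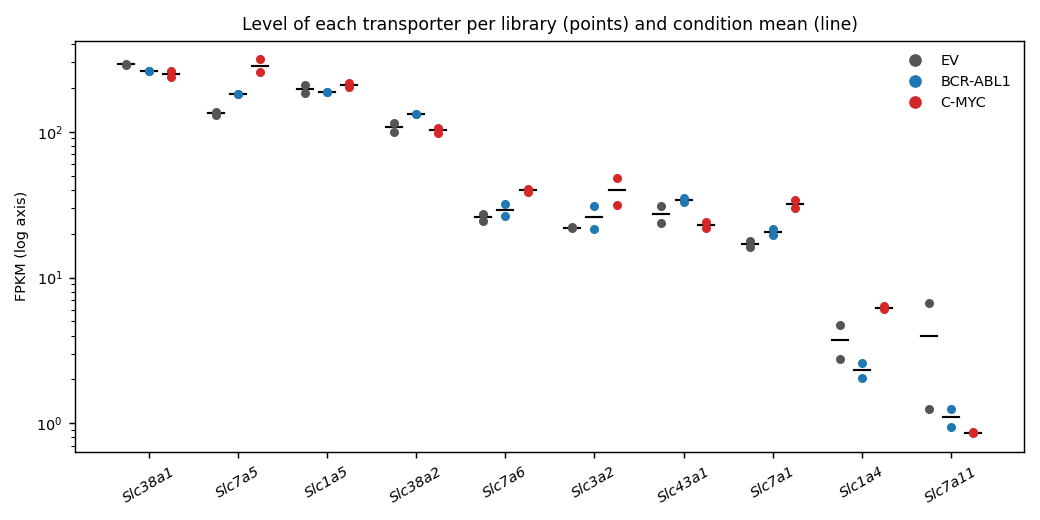
FPKM on a log axis for each transporter, ordered by its mean over 6 libraries, with points for the 2 libraries of each condition and a line at their mean. A group of 4 genes lies between 98.7 and 314 FPKM, 4 lie between 16.1 and 48.0, and Slc1a4 and Slc7a11 lie under 7.

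Sequence around the transcription start was searched for 3 motifs in RefSeq promoter windows of 300 bases on GRCm38.p6, the build of the files. Each window lies at 1 of the annotated starts of its gene. Windows were found for 7 of the 10 transporters (9 windows, 2 each for Slc7a1 and Slc7a6), and Slc7a5, Slc1a5 and Slc38a1 had no window. CACGTG, the E-box bound by MYC with MAX, was present in 1 window, that of Slc43a1, and in 7.15% of all 32851 windows. TGATGNAAN, bound by the amino acid response factor ATF4 with C/EBP partners, was present in the windows of Slc7a11 and Slc1a4 and in 3.95% of all. TGACNNNGC, the antioxidant response element bound by NRF2, was present in Slc43a1, Slc38a2, 1 window of Slc7a1 and both windows of Slc7a6, which share 1 site, and in 12.4% of all. Both strands were searched, and the sites found did not overlap each other. The windows with the first 2 motifs are shown because they belong to a transporter that was higher in C-MYC, to one that was lower against EV and to one that was lower against BCR-ABL1, and the shared motif of Slc7a11 and Slc1a4 can be compared. Each stretch is given on the gene's strand and ends 30 bases into the transcript, with the sites of TGATGNAAN (Slc7a11 and Slc1a4) or of CACGTG (Slc43a1) in capitals.
Slc7a11, chr3:50443584-50443733, minus strand: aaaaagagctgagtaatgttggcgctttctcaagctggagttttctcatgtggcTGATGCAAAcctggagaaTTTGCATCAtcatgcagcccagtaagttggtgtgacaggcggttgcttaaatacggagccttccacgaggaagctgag
Slc1a4, chr11:20332684-20332793, minus strand: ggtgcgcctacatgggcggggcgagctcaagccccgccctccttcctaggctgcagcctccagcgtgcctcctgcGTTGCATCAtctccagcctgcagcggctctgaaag
Slc43a1, chr2:84840203-84840352, plus strand: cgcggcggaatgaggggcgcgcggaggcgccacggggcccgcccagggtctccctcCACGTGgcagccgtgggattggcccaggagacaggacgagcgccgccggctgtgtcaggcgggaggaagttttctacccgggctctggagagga
In Slc7a11, 1 site lay on each strand, at positions -66 to -58 and -48 to -40 from the start. In Slc1a4, a single site on the opposite strand spanned the start, from -5 to 4. The E-box of Slc43a1 lay at -64 to -59, and its TGACNNNGC site, at -16 to -8 on the opposite strand, is left in lower case. These letters are descriptions of the windows, and binding was not measured here.

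Of 12785 other tested genes, those most like Slc7a5 over the 6 libraries, by the root mean square difference of centred log2(CPM + 1) values, were Slc25a39, Rab26os, Bzw2, Phb2 and Nop10, with differences of 0.0622 to 0.0688. Phb2, a mitochondrial prohibitin, was at 259 and 240 CPM in EV, 330 and 341 with BCR-ABL1 and 572 and 508 with C-MYC. Slc25a39 is a mitochondrial carrier required for glutathione import, and Nop10 is a component of H/ACA ribonucleoproteins. Rab26os, at 2.88 to 9.06 CPM, is an antisense gene whose reads cannot be assigned to a strand here. Among the other transporters, Slc7a1 was closest, at rank 15 (0.0909). Slc3a2, whose product forms the heterodimer with LAT1, was at rank 543 (0.217), and Slc7a11 was farthest, at rank 12322 (1.34).

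Of 38 other amino acid transporter genes of the plasma membrane, 12 had enough counts to be tested, which the filter asks of only 2 libraries. A gene with few counts in BCR-ABL1 could thus enter through EV or C-MYC, as Slc7a2 did (7 and 8 counts in BCR-ABL1). The calls and medians of this list that involve BCR-ABL1 follow in part from this filter. In BCR-ABL1 against EV, edgeR called 0 of the 12 higher (0 at an unadjusted p below 0.05 and 0 by DESeq2) and 7 lower, with a median of -1.62. In C-MYC against EV, 1 was higher and 3 lower (median -0.47), and in C-MYC against BCR-ABL1, 6 were higher and 0 lower by edgeR (median 0.73), with 2 lower at an unadjusted p below 0.05 and 0 by DESeq2. Of all genes, 5.08% were higher and 12.0% lower in the first comparison, 18.6% higher and 24.5% lower in the second, and 11.5% higher and 11.9% lower in the third. Slc7a8, the LAT2 light chain, was at 17.3 and 25.5 CPM in EV, 3.79 and 3.82 with BCR-ABL1 and 19.0 and 23.0 with C-MYC. Its log2 fold change was -2.49 ± 0.24 for BCR-ABL1 against EV (edgeR adjusted p = 0.000927) and 2.46 ± 0.24 for C-MYC against BCR-ABL1 (edgeR adjusted p = 0.000955). The arginine transporter Slc7a2 was likewise lowest in BCR-ABL1 (0.332 and 0.332 CPM, beside 6.59 and 3.80 in EV and 1.75 and 5.30 in C-MYC). The myeloid receptor gene Csf1r was also lowest in BCR-ABL1, at 10.6 and 12.0 CPM, beside 82.5 and 145 in EV and 29.9 and 54.9 in C-MYC. Lyz2 (97.4 and 123 CPM in BCR-ABL1, 132 and 226 in C-MYC), Cd14, Itgam and Elane were lowest there too. S100a9 (12.6 and 8.06 CPM in BCR-ABL1, 8.23 and 11.5 in C-MYC), S100a8 (8.25 and 4.196 in BCR-ABL1, 5.42 and 6.42 in C-MYC) and Mpo (0.284 and 0.166 in BCR-ABL1, 0.230 and 0.943 in C-MYC) were not. Of the 8 myeloid markers, edgeR called 8 lower in BCR-ABL1 than in EV, where Mpo and Elane passed the filter through EV. It called 2 higher in C-MYC than in BCR-ABL1 (4 at an unadjusted p below 0.05 and 3 by DESeq2). The part of myeloid cells in these values was not tested. The taurine transporter Slc6a6 rose in C-MYC against both EV (0.47 ± 0.11, edgeR adjusted p = 0.0117) and BCR-ABL1 (0.61 ± 0.11, edgeR adjusted p = 0.00837). Slc43a2, the LAT4 gene and nearest relative of Slc43a1, fell by 1.21 on the log2 scale in C-MYC against EV (edgeR adjusted p = 0.00640).

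Transporters of the lysosome, which return amino acids to the cytosol, were lower in C-MYC than in EV for 4 of 5 tested genes (6 listed), beside 24.5% of all genes, and 2 of 5 were lower in BCR-ABL1, beside 12.0%. Between C-MYC and BCR-ABL1, 0 were called by edgeR (1 higher and 2 lower at an unadjusted p below 0.05, and 0 by DESeq2). Of all genes, 11.5% were higher and 11.9% lower there. Slc38a9, which senses lysosomal arginine for mTORC1, fell by 1.52 in C-MYC (edgeR adjusted p = 0.00204) and by 0.97 in BCR-ABL1 (edgeR adjusted p = 0.0268) on the log2 scale. The other named genes fell by 1.24 (Pqlc2), 0.84 (Ctns, the cystine exporter) and 0.59 (Slc36a1) in C-MYC against EV. The medians were -0.84 for C-MYC and -0.78 for BCR-ABL1 against EV.

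Carriers of the inner mitochondrial membrane had calls in the other direction. Of 9 tested genes (10 listed), 4 were higher in C-MYC than in EV, 2 in BCR-ABL1 than in EV and 3 in C-MYC than in BCR-ABL1, and 0 were lower in any of these by edgeR or DESeq2. The shares of all genes that were higher were 18.6%, 5.08% and 11.5%, and those that were lower were 24.5%, 12.0% and 11.9%. At an unadjusted p below 0.05, 2 were lower in C-MYC against EV and 0 in the other comparisons. The aspartate and glutamate carrier Slc25a13 was at 2.43 and 2.72 CPM in EV, 8.91 and 7.48 with BCR-ABL1 and 12.2 and 14.9 with C-MYC, with a log2 fold change of 2.39 ± 0.23 for C-MYC against EV (edgeR adjusted p = 0.000390). The serine carrier Sfxn1 rose by 1.00 ± 0.12 (edgeR adjusted p = 0.000720), the glutamate carrier Slc25a22 by 0.70 ± 0.15 (edgeR adjusted p = 0.00832) and the ornithine carrier Slc25a15 by 0.69 ± 0.19 (edgeR adjusted p = 0.02003) in the same comparison. The list's median was 0.14.

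Of 17 tested enzymes that use imported amino acids (18 listed), 9 were higher and 1 lower in C-MYC than in EV (median 0.61), 3 were higher and 2 lower in BCR-ABL1 than in EV (0.20), and 6 were higher and 0 lower in C-MYC than in BCR-ABL1 (0.30, with 0 lower also at an unadjusted p below 0.05 and by DESeq2). Of all genes, 18.6% were higher and 24.5% lower in the first of these comparisons, 5.08% and 12.0% in the second, and 11.5% and 11.9% in the third, so the share lower in BCR-ABL1 than in EV was near that of all genes. Asparagine synthetase (Asns) was at 17.2 and 19.8 CPM in EV, 19.5 and 20.9 with BCR-ABL1 and 83.4 and 69.5 with C-MYC. It was 2.05 ± 0.15 above EV on the log2 scale in C-MYC (edgeR adjusted p = 0.000194). Ornithine decarboxylase (Odc1), which starts polyamine synthesis from arginine-derived ornithine, was 1.04 ± 0.09 higher (edgeR adjusted p = 0.000350). Gclc, which catalyses the first step of glutathione synthesis from cysteine, was at 114 and 104 CPM in EV, 160 and 152 with BCR-ABL1 and 203 and 205 with C-MYC, and it passed the test in all 3 comparisons. Gclc was highest in the C-MYC libraries. Slc7a11, the cystine importer, was counted 17 and 38 times in C-MYC and 39 and 39 times in BCR-ABL1. It did not differ between these by the test (edgeR adjusted p = 0.709), and a relation of both genes was not tested. Arginase (Arg1) was at 17.1 and 5.81 CPM in EV, 0.379 and 0.291 with BCR-ABL1 and 5.61 and 7.86 with C-MYC, with a higher value in EV replicate 1, as for Slc7a11. With 8 and 7 counts in BCR-ABL1, Arg1 passed the filter through EV and C-MYC. Another arginine enzyme had 2 and 5 counts in BCR-ABL1, beside 57 and 18 in EV and 11 and 10 in C-MYC. Lower calls of such genes in BCR-ABL1 follow in part from the filter.

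**Figure D4:**
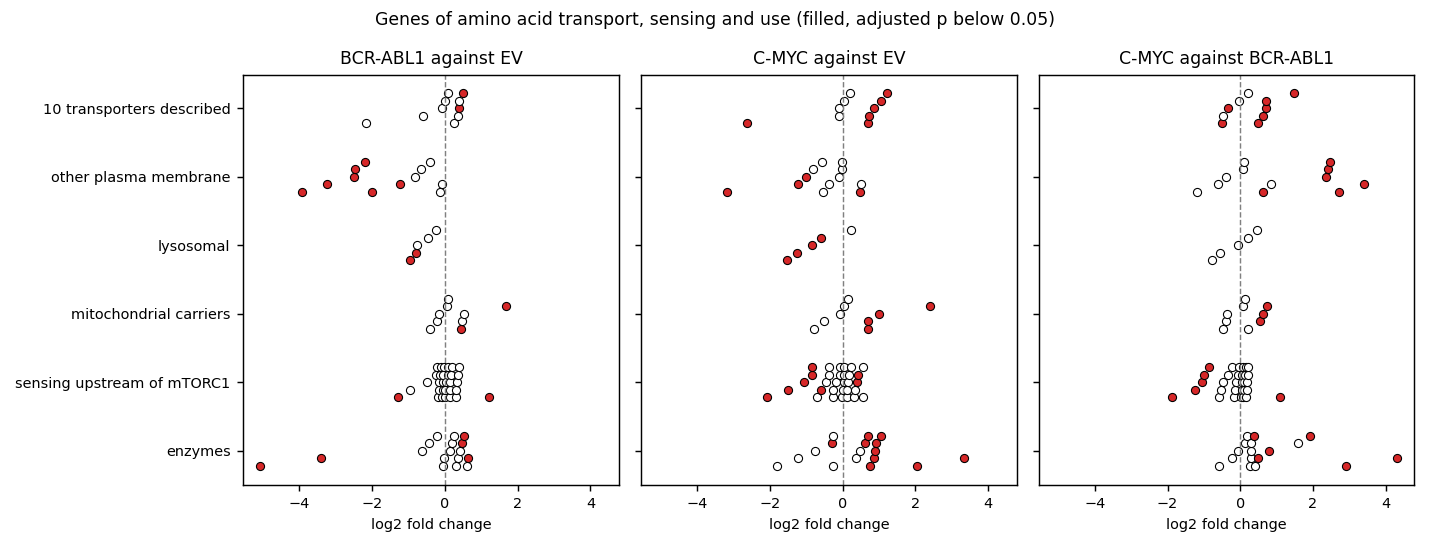
Log2 fold changes (horizontal axes) of the 10 transporters and of the tested genes of 5 further lists, 1 point per gene, filled where the adjusted p was below 0.05, with the vertical offset within a list for legibility only. In the comparison of C-MYC with EV, filled points lie right of 0 for 5 of the 10 transporters and 1 of 12 other plasma membrane genes. They also do so for 0 of 5 lysosomal genes, 4 of 9 mitochondrial carriers, 2 of 31 sensing genes and 9 of 17 enzymes. Left of 0 lie 1, 3, 4, 0, 6 and 1 filled points of these lists, in the same order. Of all tested genes, 18.6% were higher and 24.5% lower there.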

How the data were processed

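Reads from poly(A) RNA had been aligned by the authors with STAR 2.5.0 (GRCm38/mm10, UCSC known genes). The deposited counts per gene symbol are raw, and the deposited FPKM values were made by the authors with StringTie 1.3.0. The counting program and strand setting are not given in the sources used here. From the counts, edgeR 4.0.16 (R 4.3.3) was fitted to all 6 libraries with condition as the only term, after filterByExpr and TMM scaling. A gene was called where the quasi-likelihood p, adjusted over 12786 genes after Benjamini and Hochberg, was below 0.05. The SE is the absolute log2 fold change divided by the root of F. The common biological coefficient of variation between replicates was 0.151, sampling error adds to it for genes of few counts such as Slc7a11, and replicates differed beyond sampling noise. The script was tested on simulated data. Alternatives used DESeq2 1.42.0 and limma 3.58.1 on log2(FPKM + 1). Positions are from GENCODE vM21, 1-based. The members, lists and tests were chosen with earlier results of these data known. Besides the 10 members, at most 4 genes per list were named, those of smallest adjusted p with a mean of at least 50 counts. Myeloid markers beside Slc7a11 and Slc7a2 were named after their values were seen. Erythroid markers are not reported here, and ChIP-seq samples were not analysed here. Figures were drawn with matplotlib 3.10.9 in Python 3.11.15.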

Additional observations from a re-analysis of the deposited data

How the results depend on the processing

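Alternatives were DESeq2's size factors, no filter on low counts, DESeq2's test, only the 4 libraries compared, a replicate block, omission of each library, and limma on FPKM. None reversed a called difference. In BCR-ABL1 against EV, the 2 higher calls became 1 with only the 4 libraries and 0 in the 3 fits of FPKM, and 1 lower call (Slc7a11) appeared without the filter and in DESeq2's test. In C-MYC against EV, the 5 higher calls became 4 on FPKM with a pseudocount of 1 or of 0.1, without Slc1a4, and 3 on unfiltered FPKM, and the lower call became 0 in the 3 FPKM fits. In C-MYC against BCR-ABL1, the 5 higher calls became 3, 3 and 2 on FPKM with a pseudocount of 1, of 0.1 and without filter, and the 2 lower calls became 1, 1 and 0 there, 0 with DESeq2's size factors, and 1 without the filter and in DESeq2's test. Calls over all genes also changed on FPKM, where the 3 fits tested 10642, 10642 and 17805 genes, beside 12786 in the main fit. Higher calls were 248, 246 and 277 (main fit 650) in BCR-ABL1 against EV. They were 1607, 1607 and 1472 (2383) in C-MYC against EV and 876, 900 and 565 (1468) in C-MYC against BCR-ABL1. Lower calls in these last 2 comparisons were 2677, 2672 and 3130 (3132) and 1244, 1325 and 847 (1523). The cause was not tested. When a library was left out, higher calls ranged from 0 to 2, 4 to 5 and 0 to 5 and lower calls from 0 to 1, 0 to 1 and 0 to 2 in the 3 comparisons in this order. Values near 0 changed sign without a call. Slc1a5 in BCR-ABL1 against EV was -0.0048 with only the 4 libraries, -0.0598, -0.0601 and -0.0598 on FPKM and -0.0556 to 0.0773 when a library was left out. Slc38a2 in C-MYC against EV was -0.0624, -0.0630 and -0.0624 on FPKM and -0.0317 to 0.138 when a library was left out, while Slc38a1 ranged from -0.184 to 0.00046 and Slc43a1 from -0.283 to 0.0894. Slc38a1 in C-MYC against BCR-ABL1 was 0.00086 with DESeq2's size factors, 0.0020 in DESeq2's test and -0.120 to 0.0648 when a library was left out. Counts per kilobase of annotated exon kept the FPKM rank of 3 of 10 genes.

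Replicate numbers are shared between conditions, and the labels do not say that a number marks a batch. Deviations of libraries with the same number from their condition means correlated across genes between conditions (Pearson's r 0.36, 0.31 and 0.31, genes not being independent), which is a hint from the data only. The replicate block gave 3, 5 and 5 higher and 0, 1 and 2 lower calls among the 10 transporters, with Slc7a1 in BCR-ABL1 against EV as the added call, and over all genes it raised higher calls in that comparison from 650 to 1221. It changed no other call of the 10.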

Other observations

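Amino acid sensing upstream of mTORC1 was represented by 31 genes, all tested. In C-MYC against EV, 2 were higher and 6 lower (median -0.01, beside 18.6% and 24.5% of all genes), in BCR-ABL1 against EV 1 was higher and 1 lower (-0.01, beside 5.08% and 12.0%), and in C-MYC against BCR-ABL1 1 was higher and 5 lower (0.03, beside 11.5% and 11.9%). Gatsl2, the arginine sensor subunit CASTOR2, was at 15.1 and 11.7 CPM in EV, 12.8 and 10.9 with BCR-ABL1 and 3.03 and 3.37 with C-MYC, so both C-MYC libraries lay below the 4 others (log2 fold change -2.07 ± 0.23 against EV, edgeR adjusted p = 0.000541). Lamtor4, a Ragulator subunit, was lower in C-MYC than in EV (-0.85 ± 0.14, edgeR adjusted p = 0.00228), and so was the sestrin gene Sesn3 (-1.06 ± 0.20, edgeR adjusted p = 0.00493). The Rag GTPase gene Rragd was higher in BCR-ABL1 (81.2 and 68.6 CPM) than in EV (34.5 and 30.8, edgeR adjusted p = 0.00176) and than in C-MYC (39.7 and 43.3, edgeR adjusted p = 0.00593).

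Of 10 genes known to regulate amino acid transporters, all tested, 3 were higher and 2 lower in C-MYC than in EV, 2 higher and 0 lower in BCR-ABL1 than in EV by edgeR (2 lower at an unadjusted p below 0.05 and 0 by DESeq2), and 2 higher and 1 lower in C-MYC than in BCR-ABL1. Of all genes, 18.6% were higher and 24.5% lower in the first of these comparisons. The shares were 5.08% and 12.0% in the second and 11.5% and 11.9% in the third. The share lower in C-MYC than in EV was thus near that of all genes. The higher calls in both comparisons with C-MYC include Myc, the transduced gene, whose call there was fixed by the design. These higher counts are therefore not read against the shares of all genes. Besides Myc itself, the ubiquitin ligase gene Nedd4 was at 139 and 210 CPM in EV, 265 and 274 with BCR-ABL1 and 405 and 432 with C-MYC, and it was 1.26 ± 0.18 higher in C-MYC than in EV on the log2 scale (edgeR adjusted p = 0.00147). Its relative Nedd4l was lower in C-MYC than in BCR-ABL1 (-0.74 ± 0.13, edgeR adjusted p = 0.00701). The stress response factor gene Ddit3 was lower in C-MYC than in EV (-1.02 ± 0.20, edgeR adjusted p = 0.00521).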
